A study of Mus musculus with 10 samples.

Results

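Hepatokines are proteins that the liver secretes into the blood and that act on other organs. Transcripts of 8 such genes, namely Gdf15, Fgf21, Inhbe, Fst, Angptl8, Fetub, Ahsg and Selenop, were described in mouse liver. They were chosen by name, with each mouse Ensembl identifier of the deposited count table matched to its symbol, and make up 8 of 46071 gene entries. All 8 passed the filter on low counts, which left 14820 genes to test. Liver RNA of 10 libraries was sequenced, in 3 groups set by the genotype of the parents. Both parents of the 4 control libraries had 2 floxed insulin receptor alleles (IRlox/lox) and no Cre (Albumin-Cre-/-), and came from control parents crossed for 4 generations. The father of the 3 FL libraries was a LIRKO mouse (IRlox/lox; Albumin-Cre+/-) and the mother a control. For the 3 ML libraries the mother was LIRKO and the father a control. In LIRKO mice the Albumin promoter drives Cre in hepatocytes, so that the floxed insulin receptor gene is deleted there. The floxed allele is therefore common to the parents of all 3 groups. The offspring's own Cre status, sex, age, litter and diet are missing from the labels used here. Whether each library stands for its own animal is not stated, and p-values therefore describe only how far these libraries spread. The comparisons ask how the livers of offspring differ with a LIRKO father or a LIRKO mother, and the FL and ML comparisons share the same 4 control libraries.

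The 8 genes belong to several hormone systems. GDF15 is a stress-induced cytokine that acts on the hindbrain receptor GFRAL and reduces food intake. FGF21 is induced in hepatocytes by fasting, through PPARA, and by amino acid or endoplasmic reticulum stress, through ATF4, and signals through FGF receptors with the coreceptor beta-klotho (Klb). Inhbe encodes the activin beta E subunit, and follistatin (Fst) binds and neutralises activins. ANGPTL8 is induced by feeding and insulin and takes part in the inhibition of lipoprotein lipase. Fetuin-A (Ahsg) and fetuin-B (Fetub) are plasma proteins of the cystatin superfamily made by hepatocytes, and fetuin-A binds mineral and has been described as an inhibitor of the insulin receptor. Selenoprotein P (Selenop) carries selenium from the liver to other tissues.

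Sequences from the windows of 3 genes are shown because they share a short motif. The letters TGATGCAA, a core of the composite element bound by ATF4 with C/EBP proteins, were searched on both strands in the 250 bases before each RefSeq gene start on GRCm38. Of the 8 genes, 7 had such a window and Fst had none. The motif was present in the windows of Fgf21, Angptl8 and Inhbe, and not in those of Gdf15, Fetub, Ahsg and Selenop. Of all 32851 such windows, 260 (0.791%) held it. Capitals mark it below, read 5′ to 3′ on the strand of the gene, so that TTGCATCA is the motif on the opposite strand. The first is the Fgf21 window, chr7:45615491-45615740, minus strand, the second the Angptl8 window, chr9:21835260-21835509, plus strand, and the third a stretch around the Inhbe match, chr10:127352011-127352040, minus strand. The RefSeq start of Inhbe used here lies inside the longer GENCODE gene, so its stretch overlaps an annotated Inhbe exon, whereas the Fgf21 and Angptl8 windows overlap none.
Fgf21: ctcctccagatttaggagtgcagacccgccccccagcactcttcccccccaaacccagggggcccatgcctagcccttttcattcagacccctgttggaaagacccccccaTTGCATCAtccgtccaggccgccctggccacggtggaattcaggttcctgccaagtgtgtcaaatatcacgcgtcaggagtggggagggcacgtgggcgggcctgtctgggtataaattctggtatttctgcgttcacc
Angptl8: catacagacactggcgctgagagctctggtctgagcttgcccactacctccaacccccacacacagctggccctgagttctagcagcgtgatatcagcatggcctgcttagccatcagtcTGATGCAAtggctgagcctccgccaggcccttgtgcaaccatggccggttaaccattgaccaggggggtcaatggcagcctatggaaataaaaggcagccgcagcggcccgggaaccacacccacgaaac
Inhbe: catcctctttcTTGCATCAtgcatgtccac
Relative to the RefSeq start, the matches lie at -139 to -132 for Fgf21, -130 to -123 for Angptl8 and -181 to -174 for Inhbe. The E-box CACGTG, present in 6.02% of windows, occurred before Fgf21 at -50 to -45 and before 1 of the 2 RefSeq starts of Gdf15 at -83 to -78. The EGR motif GCGTGGGCG, in 0.536% of windows, occurred in 1 of the 2 Fetub windows at -100 to -92. The RefSeq starts behind the Gdf15 and Fetub matches lie inside the longer GENCODE genes, and so do these matches. The AP-1 letters TGANTCA (6.75% of windows) and the cyclic AMP element TGACGTCA (1.55%) were in none of the members' windows. These are matches of letters and say nothing about binding in these livers.

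Totals ran from 18655506 counts in control 1 to 39379940 in control 2, with 23192571 to 31116742 in FL and 26614915 to 34568205 in ML. Levels are given as CPM, read counts scaled to each library's total after TMM normalisation, which compare libraries. They are also given as TPM, which correct for gene length, do not use the TMM factors and compare genes. The TMM factor was 0.577 in ML 9 and 0.933 to 1.165 in the other libraries, which raises CPM in ML 9. On TPM, Gdf15 (3.20) and Inhbe (6.92) were lowest of all libraries in ML 9, which they were not on CPM. Libraries control 1 and ML 9 stood apart. Over 1249 genes with less than 1000 bases of exon, the median log2 deviation from each gene's mean was 1.67 in ML 9 and 0.51 in control 1, against -0.56 to 0.34 in the other 8. The insulin receptor gene Insr was read at 62.9 to 128 CPM in controls, 59.3 to 77.6 in FL libraries and 28.2 to 55.2 in ML. The 10 hepatocyte markers summed to 63847 to 111994 CPM over all libraries. ML 9 held the highest sums of Kupffer cell markers (1560 CPM against 297 to 598 in the other libraries) and of erythroid markers (2115 against 127 to 626). T and NK cell marker sums were also highest in ML 9 (17.3 CPM against 2.33 to 5.19 in the other libraries). Of 6 pancreatic acinar markers, 2 (Prss2 and Amy2a5) were at 0 in every library, Cela1 was at 24.4 to 243 CPM with its highest value in ML 9, and Ctrb1 had 75 counts, of which 72 were in 1 library. RNA was taken from whole liver, so fewer cells of a type and less RNA per cell cannot be told apart.

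Ahsg and Selenop were the most abundant of the 8 transcripts. On the TPM scale, averaged over the 10 libraries, Ahsg stood at 6344 and Selenop at 5579, and both lay above 99.8% of tested genes. Fetub followed at 479 TPM, Angptl8 at 149, Gdf15 at 32.7 and Inhbe at 17.9. Fgf21 at 1.68 TPM and Fst at 1.53 closed the order. Neighbours in this order were not all separated. Ahsg was above Selenop in 6 of 10 libraries, Angptl8 above Gdf15 in 7, Gdf15 above Inhbe in 4 and Fgf21 above Fst in 5, whereas Selenop exceeded Fetub, Fetub exceeded Angptl8 and Inhbe exceeded Fgf21 in all 10. The most abundant were not the most variable. The highest CPM over the 10 libraries was 32.2 times the lowest for Gdf15, 19.1 times for Angptl8, 12.6 for Fgf21 and 8.77 for Fst. This ratio was 7.20 for Selenop and 4.61 for Inhbe, but 2.64 for Ahsg and 2.15 for Fetub.

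No member passed an adjusted p of 0.05 in edgeR's quasi-likelihood test. Of the 14820 genes, 0.0135% passed in FL against control, 0% in ML against control and 0.00675% in FL against ML. At an unadjusted p under 0.05, 4 of 8 members were counted in FL against control (2 higher, 2 lower), where 3.53% of all genes were (1.63% higher, 1.9% lower). In ML against control it was again 4 of 8 (2 higher, 2 lower), beside 16.1% of all genes (8.81% higher, 7.33% lower), and in FL against ML 2 of 8, both lower in FL, beside 20% of all genes (7.59% higher, 12.4% lower). DESeq2 called 2 members in FL against control (0.344% of the genes it tested) and 1 in ML against control (0.356%). Neither DESeq2 in FL against ML (0.117%) nor limma-voom in any comparison called a member. CPM ranges of the groups did not overlap for 3 members in FL against control (Gdf15 and Fst lower, Inhbe higher), beside 5.71% of all genes (2.79% higher, 2.92% lower). This held for 1 member in ML against control (5.03% of all genes, 2.17% higher and 2.86% lower), which was Gdf15. The members' median log2 fold change was -0.07 in FL and 0.21 in ML, beside -0.05 in both over all genes, since members lay on both sides of 0.

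**Figure D1:**
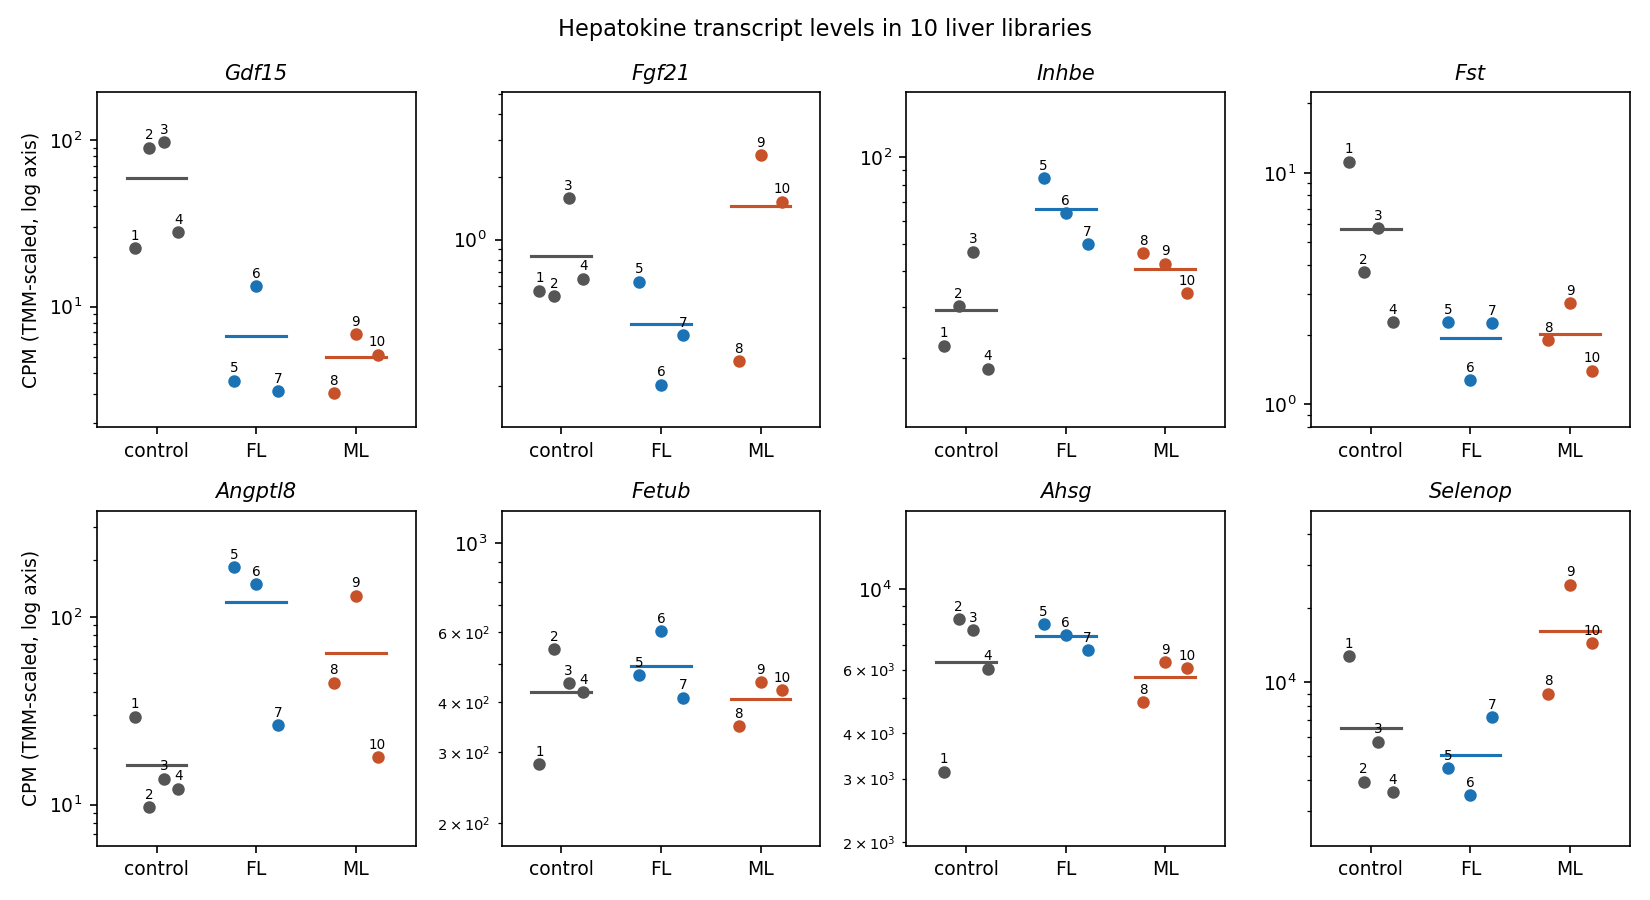
CPM of each of the 8 hepatokine transcripts (log axis, a scale of its own in each panel) in control, FL and ML libraries. Each point is 1 library and each bar a group mean. All Gdf15 points of FL and ML lie under the lowest control, and Inhbe in FL lies above every control.

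Gdf15 had the largest fold change of the 8 members in both comparisons with controls. The gene (ENSMUSG00000038508) lies on chromosome 8, 70629393 to 70632456, minus strand, GRCm38. Its levels in control 1 to control 4 were 22.4, 90, 97.3 and 28 CPM. In FL 5, FL 6 and FL 7 they were 3.59, 13.3 and 3.12 CPM, and in ML 8, ML 9 and ML 10 they were 3.02, 6.85 and 5.15. Control 2 and control 3 were the highest, control 1 and control 4 lay well under them, and every FL and ML library lay below the lowest control. The reads behind these levels were 394 to 3762 counts in controls and 97 to 460 in the other 6 libraries. Group means were 59.4 ± 39.7 CPM in controls (SD, n = 4), 6.68 ± 5.76 in FL (SD, n = 3) and 5.00 ± 1.92 in ML (SD, n = 3).

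In FL, Gdf15 was 8.89-fold lower than in controls, a log2 fold change of -3.15 (SE 0.71, 95% interval -4.70 to -1.60). In ML it was 11.9-fold lower, a log2 fold change of -3.58 (SE 0.73, 95% interval -5.17 to -1.99). Neither passed edgeR's test after adjustment over all genes. The adjusted p was 0.46 in FL (unadjusted 0.000838, rank 27 of all genes) and 0.301 in ML (unadjusted 0.000377, rank 9). DESeq2 called both, with adjusted p 0.000838 in FL and 7.55e-05 in ML, and limma-voom called neither. Over the alternatives the log2 fold change ran from -4.14 to -2.81 in FL and from -4.13 to -3.23 in ML, with adjusted p from 0.000838 to 1 and from 7.55e-05 to 0.999. FL and ML could not be separated from each other for Gdf15 (log2 0.43, 95% interval -1.06 to 1.91). Leaving out FL 6, the FL library with the most Gdf15, turned this difference to -0.56. Transcripts of its receptor were all but absent from liver, with 1 count of Gfral and 19 counts of Ret, the signalling partner of GFRAL, over all 10 libraries. The neighbouring genes Pgpep1 (FL 0.23, SE 0.36) and Lrrc25 (FL 0.57, SE 0.40) did not share the lower values of Gdf15 in FL, nor in ML, where they stood at log2 0.13 and 0.49.

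Fgf21 was read at few counts in every group. The gene (ENSMUSG00000030827) lies on chromosome 7, 45613886 to 45615490, minus strand. Counts in control 1 to control 4 were 10, 21, 61 and 29, which is 0.57, 0.53, 1.58 and 0.65 CPM. FL 5, FL 6 and FL 7 had 17, 7 and 12 counts, or 0.63, 0.20 and 0.35 CPM. ML 8 had 10 counts (0.26 CPM), ML 9 had 39 (2.54 CPM) and ML 10 had 49 (1.52 CPM). The ranges of the 3 groups overlapped, and on CPM ML held both a library near the bottom of the range and the highest of all. On TPM, control 3 was highest (3.747), with ML 10 at 2.922 and ML 9 at 2.315. The TPM mean was 1.96 in controls and 1.96 in ML. The log2 fold change was -1.10 in FL (SE 0.74, 95% interval -2.71 to 0.52) and 0.75 in ML (SE 0.70, 95% interval -0.77 to 2.27). Both intervals include 0. Without control 3 the FL value was -0.58 and the ML value 1.26. Without ML 9 the ML value was 0.09, and with the trend over gene length and GC content removed it was 0.01. Exons of Fgf21 span 951 bases, which places it among the short genes, whose median was high in ML 9. The part of gene length in its ML 9 value was not tested. FL stood 3.60-fold below ML (log2 -1.85, SE 0.79), with an edgeR adjusted p of 0.24.

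Genes that respond to or receive these hormones were read from a list of 8 receptors and coreceptors, of which 5 were tested, and none passed edgeR, DESeq2 or limma-voom. In FL, 3 lay above 0 and 2 below; in ML, all 5 lay below 0, with 0 at an unadjusted p under 0.05 in each. Klb, the coreceptor of FGF21, stood at 16.7 ± 3.55 CPM in controls (SD, n = 4), 12 ± 4.53 in FL (SD, n = 3) and 13 ± 5.85 in ML (SD, n = 3), with overlapping ranges. Fgfr1 was at 8.44 to 11.6 CPM in FL against 1.48 to 6.14 in controls, and these ranges did not overlap (log2 0.97, SE 0.49, edgeR adjusted p = 1). Klotho (Kl) gave 7 counts over all libraries.

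Inhbe was higher in each FL library than in any control. The gene (ENSMUSG00000047492) lies on chromosome 10, 127348857 to 127354411, minus strand. Control 1 to control 4 had 22, 30.2, 46.8 and 18.3 CPM. FL 5, FL 6 and FL 7 had 84.4, 63.8 and 49.7 CPM, and ML 8, ML 9 and ML 10 had 46.3, 42.5 and 33.5 CPM. The lowest FL library was only just above the highest control, and ML lay inside the upper part of the control range. The FL mean was 2.25-fold the control mean in the fit (log2 1.17, SE 0.35, 95% interval 0.41 to 1.93, edgeR adjusted p = 0.915, unadjusted 0.00587). The ML value was log2 0.47 (SE 0.35, 95% interval -0.29 to 1.24), and it ranged from 0.30 without control 4 to 0.79 without control 3. FL exceeded ML without overlap by log2 0.69 (SE 0.38, edgeR adjusted p = 0.294). Inhbc, the adjacent gene for the activin beta C subunit, stood at log2 0.32 (SE 0.40) in FL and -0.05 (SE 0.40) in ML.

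Fst was lower in FL than in controls and at a like level in ML. The gene (ENSMUSG00000021765) lies on chromosome 13, 114452290 to 114458951, minus strand. Its levels were 11.2, 3.72, 5.77 and 2.27 CPM in control 1 to control 4, 2.26, 1.27 and 2.24 CPM in FL 5 to FL 7, and 1.89, 2.74 and 1.40 CPM in ML 8 to ML 10. Control 1 was the highest of all. Control 4 was so close to FL 5 (2.265 against 2.259 CPM) that the absence of overlap in FL rests on 1 pair of libraries, and ML 9 lay above control 4. On TPM both were turned round. FL 5 (1.293) lay above control 4 (1.274), the lowest control, and ML (0.517 to 0.948) lay below every control. Fst was 2.96-fold lower in FL (log2 -1.56, SE 0.54, 95% interval -2.73 to -0.39, edgeR adjusted p = 1, unadjusted 0.0132) and 2.86-fold lower in ML (log2 -1.51, SE 0.54, 95% interval -2.69 to -0.34, adjusted p = 0.301, unadjusted 0.0159). Without control 1 these became -1.02 and -0.97. Counts ran from 42 to 223 per library.

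The rest of the activin system showed no shared direction. Of 17 listed ligands, receptors, SMADs and binding proteins, 14 were tested, and none passed edgeR, DESeq2 or limma-voom in FL or ML against control, nor was any at an unadjusted p under 0.05. In FL, 9 lay above 0 and 5 below. In ML, 5 lay above and 9 below. The activin receptor gene Acvr2b was at 1.69 to 3.42 CPM in FL against 1.17 to 1.68 in controls, without overlap (log2 0.81, SE 0.37, edgeR adjusted p = 1). Inhbb, for the beta B subunit, stood at log2 -1.39 (SE 0.71) in FL with overlapping ranges. In ML, the inhibitory Smad7 was at 4.50 to 7.28 CPM against 7.63 to 12.4 in controls (log2 -0.63, SE 0.36, edgeR adjusted p = 0.373). The follistatin relative Fstl3 and the inhibin alpha gene Inha were too low to test, with 22 and 17 counts in all.

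Angptl8 was higher in most FL and ML libraries than in controls, with a wide spread within both groups. The gene (ENSMUSG00000047822) lies on chromosome 9, 21835510 to 21837347, plus strand. Control 1 to control 4 had 29.3, 9.65, 13.7 and 12.2 CPM. FL 5 and FL 6 had 185 and 149 CPM and FL 7 had 26.6. ML 8, ML 9 and ML 10 had 44.6, 130 and 17.9 CPM. On CPM, FL 7 and ML 10 lay below control 1 and above the other 3 controls, so neither group was free of overlap. On TPM, FL 7 (69.3) lay above control 1 (59.3), the highest control, so FL did not overlap controls, while ML 10 (37.9) stayed below control 1. Means were 16.2 ± 8.91 CPM in controls (SD, n = 4), 120 ± 82.9 in FL (SD, n = 3) and 64.1 ± 58.5 in ML (SD, n = 3).

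In FL the fitted value was 7.42-fold that of controls (log2 2.89, SE 0.73, 95% interval 1.30 to 4.48). The edgeR adjusted p was 0.65 (unadjusted 0.00193), while DESeq2 called it with an adjusted p of 0.0124, and over the alternatives the log2 fold change ran from 2.44 to 3.37. In ML it was 3.96-fold that of controls (log2 1.98, SE 0.71, 95% interval 0.43 to 3.54, edgeR adjusted p = 0.301). The ML value depended on ML 9, without which it was 0.97. With the length and GC trend removed it was 1.30, and with a surrogate variable 1.02. Exons of Angptl8 span 865 bases, so that it too falls among the short genes, whose median was high in ML 9. That median was lowest in FL 5 (-0.56), the library with the most Angptl8. The part of gene length in the Angptl8 values was not tested. The difference between FL and ML was log2 0.91 (SE 0.76, 95% interval -0.75 to 2.57), and became 1.92 without ML 9, 0.47 without FL 5 and 2.33 with the surrogate variable. Angptl8 lies within Dock6 on the opposite strand, and the strand setting of the counting is not given in the sources used here, so reads of the pair may be shared. Dock6 itself stood at log2 -0.20 (SE 0.54) in FL and -1.49 (SE 0.57) in ML, opposite in sign to Angptl8.

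Other genes that control lipoprotein lipase lay mostly below controls in FL. Of 15 listed, 14 were tested and none passed edgeR, DESeq2 or limma-voom in FL or ML against control. In FL, 2 lay above 0 and 12 below, with 1 below at an unadjusted p under 0.05 (1.9% of all genes). The median log2 fold change of the list was -0.34, beside -0.05 over all genes. The 12 include Dock6 (log2 -0.20), the gene that holds Angptl8, and values near 0, such as Lpl at -0.06. Lipg, endothelial lipase, was at 8.19 to 16 CPM in FL and 24.4 to 41.4 in controls (log2 -1.30, SE 0.51, edgeR adjusted p = 1). Angptl4, the fasting-induced inhibitor of lipoprotein lipase, was at 90.2 to 128 CPM in FL and 165 to 248 in controls, again without overlap (log2 -0.75, SE 0.38, adjusted p = 1). In ML, 9 of the 14 lay above 0 and 5 below. At an unadjusted p under 0.05, 2 were above and 1 below, beside 8.81% and 7.33% of all genes. The gene below is Dock6, which is in the list only as the gene that holds Angptl8. The lowest p-values there belonged to Apoc2, an activator of lipoprotein lipase (log2 1.80, SE 0.58), and Apoc3, an inhibitor (log2 1.32, SE 0.48), both with an edgeR adjusted p of 0.301 and both highest in ML 9.

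**Figure D2:**
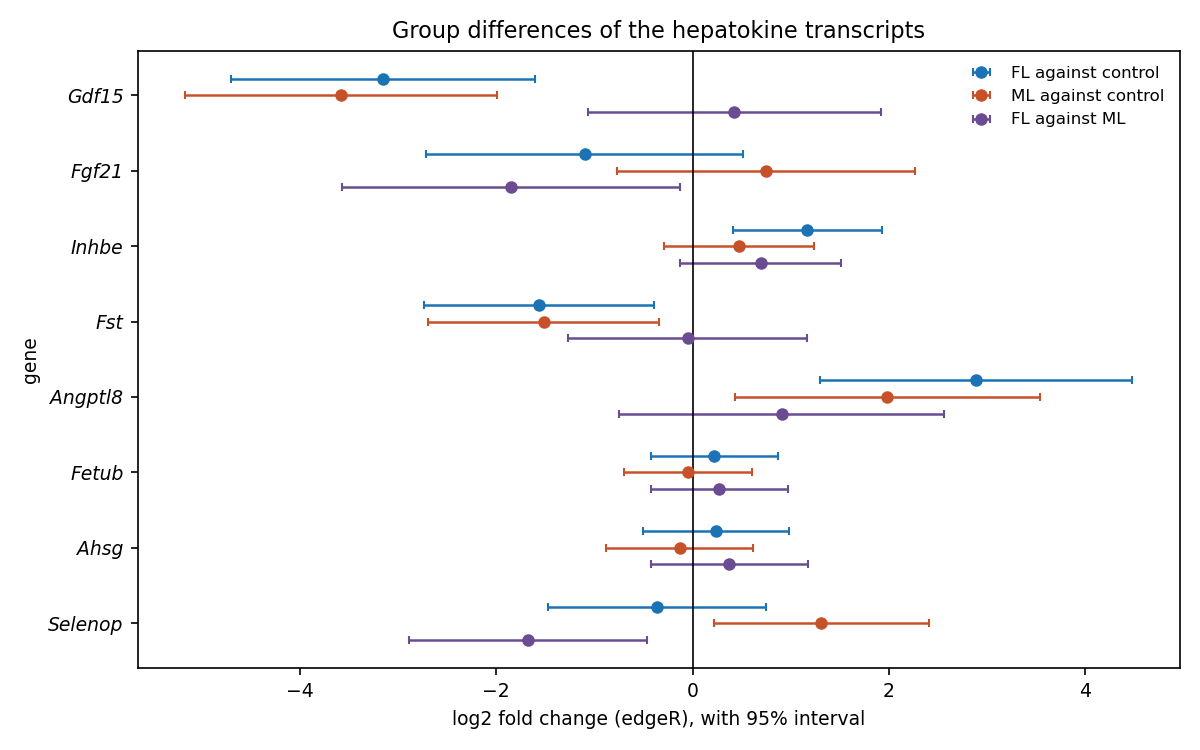
Log2 fold changes of the 8 hepatokines from the edgeR fit (points) with 95% intervals (bars) for FL against control, ML against control and FL against ML. Intervals of Gdf15 and Fst lie below 0 and those of Angptl8 above 0 in both comparisons with controls, and those of Fetub and Ahsg include 0 throughout.

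Against controls, the fetuins had the smallest log2 fold changes of the 8 genes. Ahsg (ENSMUSG00000022868, chromosome 16, 22891277 to 22899449, plus strand) and Fetub (ENSMUSG00000022871, chromosome 16, 22918334 to 22939778, plus strand) are neighbours. Ahsg ranged from 3133 to 8261 CPM in controls, 6803 to 8024 in FL libraries and 4873 to 6287 in ML. Fetub ranged from 281 to 544 CPM in controls, 411 to 604 in FL libraries and 349 to 449 in ML. Control 1 held the lowest value of both genes. The log2 fold changes of Ahsg were 0.24 in FL (SE 0.34, 95% interval -0.50 to 0.99) and -0.13 in ML (SE 0.34, 95% interval -0.88 to 0.62). Those of Fetub were 0.22 in FL (SE 0.30, 95% interval -0.43 to 0.87) and -0.05 in ML (SE 0.30, 95% interval -0.70 to 0.60). These intervals leave room for a log2 change of up to 0.99 in FL, so equality was not shown. FL lay above ML without overlap for Ahsg (log2 0.37, SE 0.37, edgeR adjusted p = 0.541), in a comparison where ranges of 31.7% of all genes did not overlap.

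Other genes of this cystatin superfamily at the same locus stayed near 0 as well. Hrg, histidine-rich glycoprotein, stood at log2 0.17 in FL and -0.10 in ML (SE 0.37 and 0.38). Kng1, a kininogen, stood at 0.01 and -0.09 (SE 0.27 in both), and Kng2 at -0.27 and -0.16 (SE 0.29 in both). Of the 9 listed genes of the locus and family, 5 were tested and none passed edgeR, DESeq2 or limma-voom in FL or ML. At an unadjusted p under 0.05 there were 0 in FL and 2 in ML, both higher, beside 8.81% of all genes higher in ML. They were the secreted protease inhibitor Cst3 (log2 0.96, SE 0.41) and the intracellular Cstb (log2 1.24, SE 0.56). Both were highest in ML 9.

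Selenop was high in ML. The gene (ENSMUSG00000064373) lies on chromosome 15, 3268547 to 3280508, plus strand. Control 1 to control 4 had 12754, 3950, 5741 and 3579 CPM. FL 5, FL 6 and FL 7 had 4473, 3468 and 7219 CPM, and ML 8, ML 9 and ML 10 had 9007, 24975 and 14430 CPM. Each ML library exceeded controls 2 to 4 and every FL library, but control 1 lay inside the ML range. On the TPM scale the ML libraries were closer together (7289 to 9285), and control 1 stood at 7844 against 3155 to 4561 in the other controls. Selenop in ML was 2.48-fold that of controls (log2 1.31, SE 0.50, 95% interval 0.21 to 2.41, edgeR adjusted p = 0.301, unadjusted 0.0231). FL was 3.19-fold below ML (log2 -1.68, SE 0.55, 95% interval -2.88 to -0.47, adjusted p = 0.238, unadjusted 0.0108). FL against control was log2 -0.36 (SE 0.51, 95% interval -1.47 to 0.75), and turned to 0.19 without control 1.

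The size of the Selenop difference moved with control 1 and ML 9. In ML against control it was 1.87 without control 1, 0.86 without ML 9 and 0.51 with a surrogate variable in the model, and the last also took FL against ML to -0.50. Removing the trend over length and GC content left it at 1.25. The median of the short genes was highest in ML 9 (1.67), control 1 (0.51), ML 10 (0.34) and ML 8 (-0.10), and these libraries also had the most Selenop. Exons of Selenop span 2842 bases, so it is not itself a short gene. Whether a trait of the libraries lies behind both was not tested. Erythroid marker sums were 313 to 2115 CPM in ML, 127 to 249 in FL libraries and 626 in control 1, against 184 to 257 in the other controls. T and NK cell marker sums were 4.33 to 17.3 CPM in ML, 2.33 to 3.91 in FL libraries and 5.19 in control 1, against 2.52 to 3.55 in the other controls. Both sums were thus high in ML and in control 1, but they did not follow Selenop library by library. ML 10 had more Selenop than control 1 but lower erythroid (382 CPM) and T and NK cell (4.59 CPM) marker sums. The Kupffer cell marker sum was highest in ML 9 (1560 CPM) and lowest in ML 10 (297 CPM). Their part in the result was not tested. The 3′ end of Selenop overlaps Ccdc152 on the opposite strand, a transcript of 10.97 ± 3.23 CPM in ML (SD, n = 3) and 5.80 ± 3.09 in controls (SD, n = 4), whose log2 fold change in ML was 0.92 (SE 0.42).

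Other selenoprotein genes and the factors that insert selenocysteine were read from a list of 26, of which 24 were tested. None passed edgeR, DESeq2 or limma-voom in any comparison. In ML, 17 lay above controls and 7 below (median log2 0.30), with 6 above at an unadjusted p under 0.05 (8.81% of all genes). In FL, 6 lay above and 18 below, with 1 above at that threshold (1.63% of all genes). It was Lrp2, an uptake receptor for selenoprotein P in kidney (log2 1.99, SE 0.70, 0.96 to 3.00 CPM in FL and at most 0.98 in controls). In FL against ML, 8 were lower and 2 higher at an unadjusted p under 0.05 (12.4% and 7.59% of all genes), and 12 had lower and 2 higher ranges without overlap (15.1% and 16.6% of all genes). The cytosolic glutathione peroxidase Gpx1 stood at log2 2.30 (SE 0.65) in ML. Its level in ML 9 was 24425 CPM against 3219 and 4432 in the other ML libraries and 1340 to 3927 in controls. Selenow (log2 1.78, SE 0.59) and the deiodinase Dio1 (log2 1.03, SE 0.38) were likewise highest in ML 9, and all 3 had an edgeR adjusted p of 0.301.

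**Figure D3:**
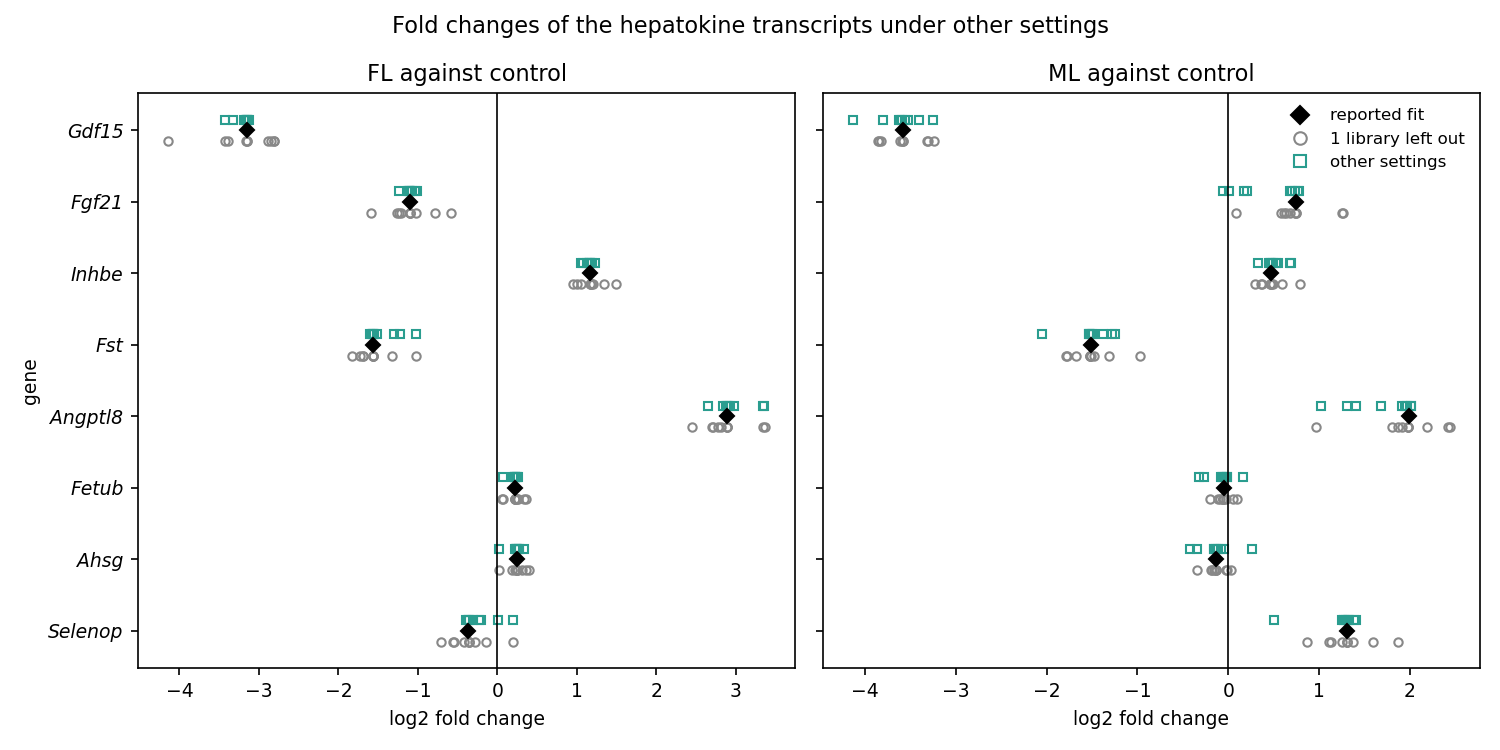
Log2 fold changes of the 8 hepatokines in FL against control and ML against control under every setting. Diamonds give the reported fit, circles the fits with 1 library left out and squares the other settings. Gdf15 stays between -4.14 and -2.81 in FL and between -4.13 and -3.23 in ML, whereas Angptl8 in ML reaches 0.97 and Selenop in FL lies on both sides of 0.

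A further 37 genes for liver-secreted hormones and carriers were listed, of which 33 were tested, and none passed edgeR or limma-voom. DESeq2 called none against controls. In FL, 11 lay above 0 and 22 below, with 2 above and 1 below at an unadjusted p under 0.05 (1.63% and 1.9% of all genes). Tsku, which encodes the liver-secreted tsukushi, was at 141 to 273 CPM in FL and 44.1 to 142 in controls, ranges that just overlap (log2 1.23, SE 0.38, edgeR adjusted p = 0.925). Manf, a secreted factor induced by endoplasmic reticulum stress, was at 152 to 162 CPM in FL and 53.2 to 111 in controls without overlap (log2 0.84, SE 0.32, adjusted p = 1). Serpinb1a, a protease inhibitor described as a liver signal for beta cell growth, was at 0.59 to 1.77 CPM in FL and 1.92 to 6.67 in controls (log2 -1.99, SE 0.61, adjusted p = 0.925). In FL against ML, Serpinb1a stood at log2 -2.71 (SE 0.65), with an edgeR adjusted p of 0.238, and was the list's single DESeq2 call.

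In ML, 20 of these 33 genes lay above 0 and 13 below. At an unadjusted p under 0.05, 4 were above and 1 below, beside 8.81% and 7.33% of all genes. Rbp4, the retinol carrier (log2 1.07, SE 0.37), and Lect2 (log2 1.08, SE 0.44) were both highest in ML 9 and had an edgeR adjusted p of 0.301. Lcn2, an acute phase protein, stood at log2 -4.21 (SE 1.56). That value rested on a wide control group, from 1.08 CPM in control 1 to 376 in control 2, and ML (3.65 to 8.06 CPM) lay inside it.

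Genes of the pathways that are known to regulate these hormones were counted from lists chosen by function. For comparison, 1.63% of all genes were higher and 1.9% lower in FL at an unadjusted p under 0.05. In ML these shares were 8.81% and 7.33%. DESeq2 called 0.344% of the genes it tested in FL and 0.356% in ML. The integrated stress response, the ATF4 and CHOP pathway upstream of Fgf21, Gdf15 and Inhbe, had 24 of 25 genes tested, and none passed edgeR or limma-voom. In FL, 12 lay above 0 and 12 below (3 above and 5 below at an unadjusted p under 0.05), and DESeq2 called 3. Asns, asparagine synthetase, was at 6.52 to 7.78 CPM in FL and 0.68 to 1.48 in controls (log2 2.75, SE 0.52, edgeR adjusted p = 0.35). Trib3, a pseudokinase induced by ATF4, went the other way, with 1.72 to 3.97 CPM in FL and 7.92 to 11.8 in controls (log2 -1.78, SE 0.38, adjusted p = 0.406). Vldlr, the VLDL receptor, was at 0.29 to 0.70 CPM in FL and 0.98 to 3.65 in controls (log2 -2.30, SE 0.56, adjusted p = 0.58). In ML, 7 of the 24 lay above 0 and 17 below, with 0 above and 3 below at an unadjusted p under 0.05 and no DESeq2 call. Trib3 was again below controls in ML without overlap (2.87 to 5.31 CPM, log2 -1.29, SE 0.38, adjusted p = 0.301).

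PPARA drives Fgf21 in fasting. Of 15 genes of the PPARA and fasting response, 13 lay below controls in FL and 2 above, Ppara itself (log2 0.12) and Sirt1 (0.11). At an unadjusted p under 0.05, 6 were lower, beside 1.9% of all genes. None passed edgeR or limma-voom, and DESeq2 called 4, all lower. The fatty acid hydroxylase Cyp4a14 was at 1.91 to 6.32 CPM in FL and 13.1 to 730 in controls (log2 -6.23, SE 1.23, edgeR adjusted p = 0.366), while ML held 131 to 513 CPM. In ML, 8 of the 15 lay above 0 and 7 below, with 0 above and 2 below at that threshold (8.81% and 7.33% of all genes). DESeq2 called Pdk4 in ML (log2 -2.92, SE 0.79, edgeR adjusted p = 0.301). Reads of Cyp4a14 may be shared with close relatives, so its value is uncertain.

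Lipogenic genes, which like Angptl8 respond to insulin, LXR and ChREBP, did not share its direction. In ML, 12 of 15 lay below controls. At an unadjusted p under 0.05, 8 were lower and 2 higher, beside 7.33% and 8.81% of all genes. DESeq2 called Fasn, Acacb and Scd1 in ML, all lower, while edgeR and limma-voom called none. Fasn, fatty acid synthase, was at 32.6 to 125 CPM in ML and 216 to 619 in controls (log2 -2.30, SE 0.56, edgeR adjusted p = 0.301). Scd1, a fatty acid desaturase, was at 718 to 2066 CPM in ML and 2611 to 12470 in controls (log2 -2.48, SE 0.55, adjusted p = 0.301). In FL, 6 of the 15 lay above 0 and 9 below, with 3 below at an unadjusted p under 0.05 (1.9% of all genes). DESeq2 called Pnpla3 in FL (log2 -3.30, SE 0.91, edgeR adjusted p = 0.784). FOXO1 targets and insulin signalling genes lay below controls for 8 of 11 in FL and 10 of 11 in ML, among them Igfbp1, with 5.56 to 34.4 CPM in FL, 7.04 to 160 in ML and 245 to 1596 in controls. At an unadjusted p under 0.05 there were 1 higher and 2 lower in FL (1.63% and 1.9% of all genes) and 5 lower in ML (7.33%). None of the 11 passed edgeR or limma-voom, and DESeq2 called Igfbp1 in both comparisons and Irs2 in ML.

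Immediate early genes, a class to which EGR1 and the AP-1 factors belong, lay below controls for all 22 tested of 24, in FL and in ML alike. The median log2 fold change was -1.32 in FL and -1.31 in ML, against -0.05 over all genes in both. At an unadjusted p under 0.05, 12 were lower in FL and 14 in ML, beside 1.9% and 7.33% of all genes. In each, 9 had ranges below controls without overlap, beside 2.92% of all genes in FL and 2.86% in ML. None passed edgeR or limma-voom. DESeq2 called 5 in FL and 6 in ML, all lower. Nr4a1 was at 0.87 to 3.36 CPM in FL and 0.53 to 1.30 in ML, against 6.88 to 20 in controls. The p53 pathway induces Gdf15 after DNA damage. Of its 13 listed genes, 5 lay above 0 and 8 below in both FL and ML, with no call by any of the 3 tools. At an unadjusted p under 0.05, 2 were higher and 2 lower in FL (1.63% and 1.9% of all genes) and 0 in ML. Cdkn1a stood at log2 -3.89 in FL (SE 1.53, edgeR adjusted p = 1), a value that rested on 123 CPM in control 2 against 1.14 to 6.93 in the other controls.

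**Figure D4:**
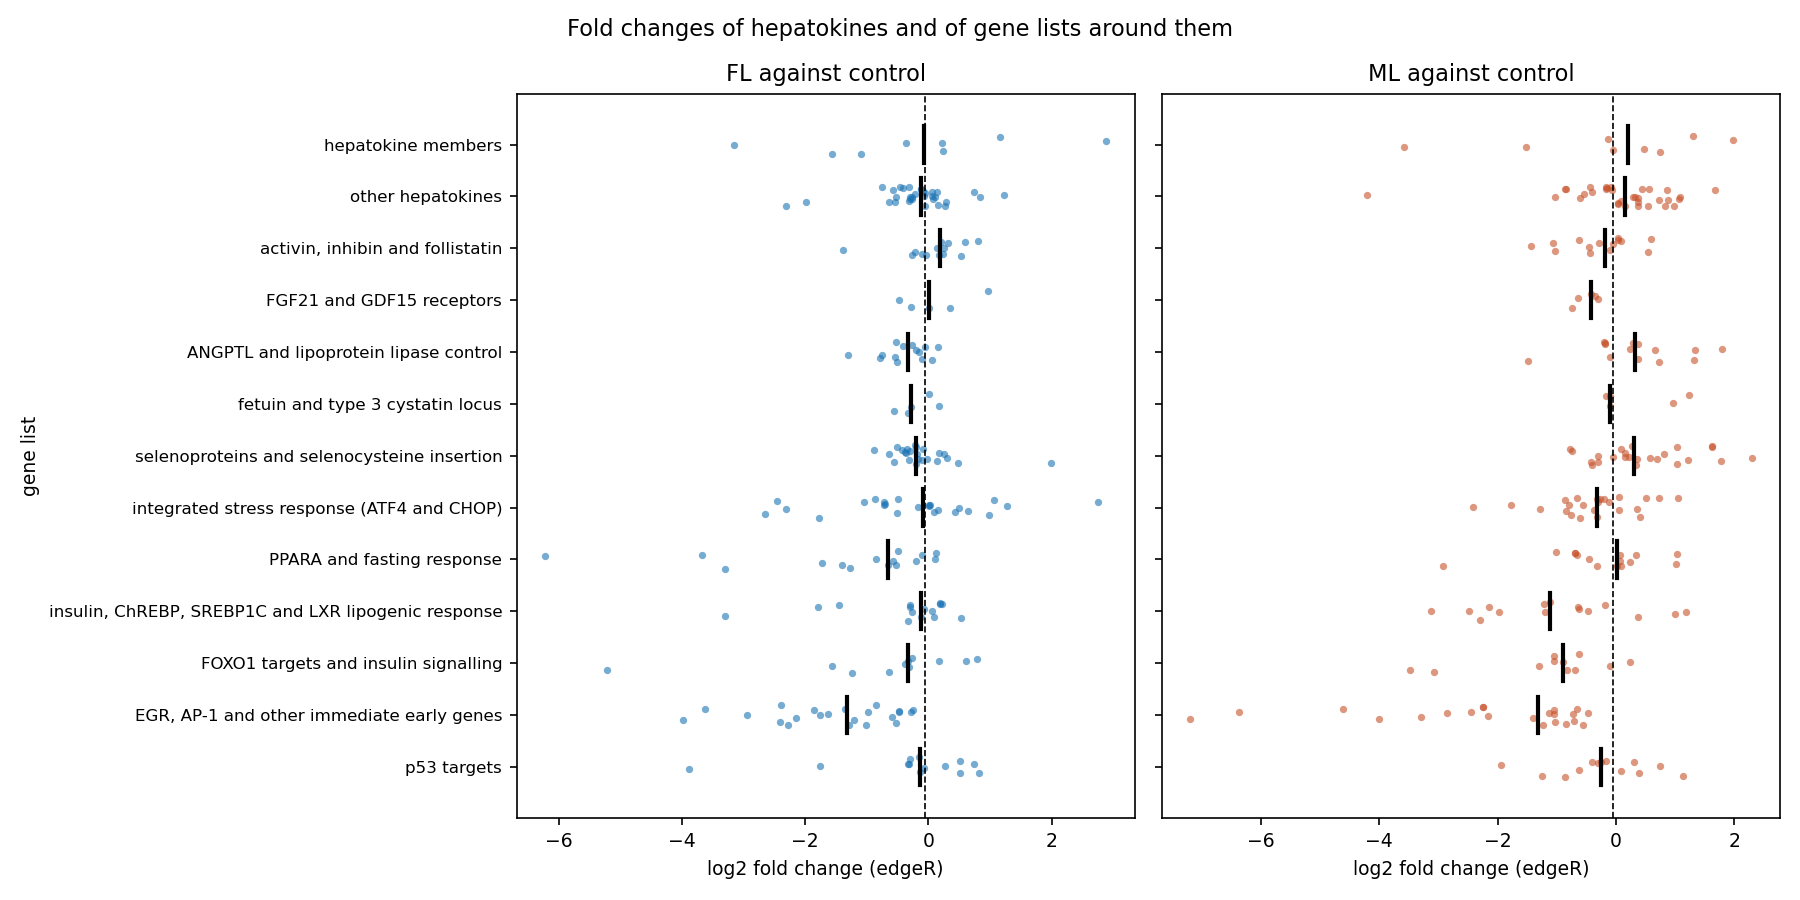
Log2 fold changes from the edgeR fit for the 8 hepatokines and for the gene lists around them, in FL against control and ML against control. Each point is 1 tested gene, each black bar the median of a list and the dashed line the median of all tested genes (-0.05 in both panels). The immediate early genes all lie below 0, with medians of -1.32 in FL and -1.31 in ML, and the hepatokines lie on both sides.

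Genes whose levels followed those of a hepatokine over the 10 libraries were ranked by Pearson's r of log2 CPM among about 11150 tested genes with a mean of at least 1 CPM. These correlations mix differences between groups with those within groups, and the libraries share their scaling, so they are descriptions. For Gdf15 the highest were Nr4a1 (r = 0.950), Jun (0.917) and Igfbp1 (0.888). Without control 1 and ML 9, the values were 0.991, 0.955 and 0.885. All 3 were high in the controls and low in the other libraries.

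For Angptl8, Irf1, an interferon regulatory factor (r = 0.887), and Wdr77 (0.881) were among the 3 highest. For Inhbe they were Dynll1 (0.875), Tes (0.865) and Srm (0.849), and for Fst they were Ezh2 (0.920), Arl2bp (0.898) and Parn (0.879). Fgf21, read at few counts, was followed most closely by Nln (0.908), Vti1a (0.898) and Pcdh17 (0.862). For Selenop the highest were Ywhaq (0.993), Gatad1 (0.985) and Cdkn2aipnl (0.983), and for Fetub Abcf1 (0.943), Grina (0.939) and Capzb (0.932). For Ahsg, Ptcd1 (0.957) and Dtnb (0.949) were among the 3 highest. Of the 24 genes ranked highest for the 8 hepatokines, 6 were still among the top 3 for the same hepatokine without control 1 and ML 9. Among the 28 pairs of members, the neighbours Ahsg and Fetub had the highest r (0.893, and 0.779 without control 1 and ML 9), followed by Inhbe and Angptl8 (0.704, and 0.829 without them). Gdf15 and Angptl8 had the lowest (-0.58).

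**Figure D5:**
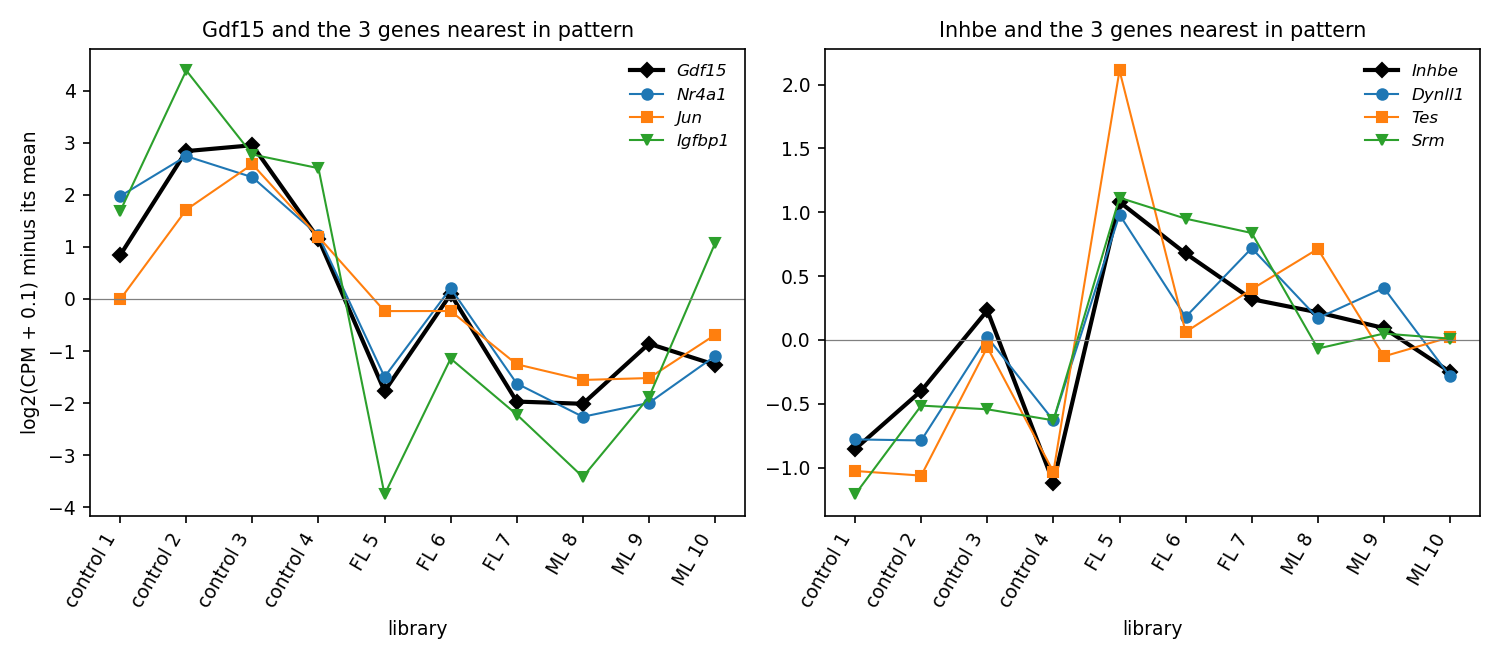
Levels of Gdf15 (left) and Inhbe (right) with the 3 genes nearest to each in pattern, as log2 CPM with a small offset minus each gene's mean, by library. Lines join the libraries of 1 gene and mark no order among them. Gdf15 lies above its mean in the 4 controls, near it in FL 6 and below it in the other 5 libraries, and Inhbe is highest in FL 5, FL 6 and FL 7.

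Set side by side in the edgeR fit, FL and ML livers had like Gdf15 and Fst values and differed most in Fgf21 and Selenop. This order depended on the scaling and the model. On TPM, Angptl8 had the largest ratio between the group means, with 348 in FL and 95.5 in ML. TPM means were 4266 in FL and 8061 in ML for Selenop, and 1.03 and 1.96 for Fgf21. With a surrogate variable, FL against ML was log2 -0.50 for Selenop and 2.33 for Angptl8. In FL against ML, the intervals of Gdf15 (-1.06 to 1.91) and Fst (-1.27 to 1.17) were wide enough to hold differences of more than 1 log2 unit in either direction. Fgf21 (log2 -1.85, SE 0.79) and Selenop (log2 -1.68, SE 0.55) had unadjusted p-values of 0.0375 and 0.0108 and edgeR adjusted p-values of 0.24 and 0.238. Ranges of 3 members did not overlap, Inhbe and Ahsg above ML and Selenop below it, beside 31.7% of all genes in this comparison.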

How the data were processed

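Per the labels' protocols, libraries were directional, from polyadenylated liver RNA, with paired-end reads. The deposited table holds raw read counts per gene for 10 libraries. STAR, featureCounts and GRCm38 stand in the submitters' processing notes; their versions, the annotation and the strand setting were not given in these sources. Of 46071 identifiers, 45229 matched GENCODE M21, and unmatched ones took at most 0.066% of a library's counts.

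Genes were filtered (edgeR filterByExpr, minimum count 10), scaled by TMM and tested with edgeR 4.0.16 (R 4.3.3) quasi-likelihood F tests, robust, on all 10 libraries (7 residual degrees of freedom), with Benjamini-Hochberg adjustment over 14820 genes and a threshold of 0.05. CPM use TMM-scaled totals and TPM the union exon length. Correlations used log2 CPM with a prior count of 2. The common biological coefficient of variation was 0.448. Scripts were tested on simulated data. Alternatives were DESeq2 1.42.0, limma-voom (limma 3.58.1), a surrogate variable (sva 3.50.0), no filter, 2 groups only, a length and GC trend, and leaving out libraries. Promoter windows are RefSeq's (GRCm38.p6).

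Members and gene lists were chosen with earlier results of these data known. Named are all members, from each list the genes past the threshold or else up to 3 with the lowest p, the 3 genes nearest in pattern, Insr and neighbouring genes. Other genes called by DESeq2 and genes too low to test were named after their values were seen. A few of the genes so chosen are not reported here.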

Additional observations from a re-analysis of the deposited data

Results flagged for a closer look

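Fgf21 in control 3 stood apart from the other control libraries, with 1.58 CPM against 0.53 to 0.65 CPM in the other 3. The gap to its nearest neighbour took 0.889 of the range of the group, above Dixon's 95% critical value for 4 values. The control values of all 8 hepatokines were examined this way, and chance alone marks about 1 in 20 groups. The value comes from 61 counts. Without control 3 the log2 fold change of Fgf21 was -0.58 in FL and 1.26 in ML.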

How the results depend on the processing

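No paired analysis was possible because the groups share no replicate number. Of 456 refits of the 24 fold changes of members, 437 kept direction and side of the threshold, 16 changed direction, and 3 passed it, all with DESeq2: Gdf15 in FL (-3.15) and ML (-3.59) and Angptl8 in FL (2.885). Direction changed in the following. Selenop in FL was 0.0084 with a surrogate variable, 0.20 without control 1 and ML 9, and -0.71 to 0.19 with 1 library left out. Fgf21 in ML was -0.053 without both. In ML, Fetub was 0.16 and Ahsg 0.26 with a surrogate variable, and -0.20 to 0.094 and -0.35 to 0.031 with 1 library left out. In FL against ML, Gdf15 ran from -0.56 to 0.77 and Fst from -0.25 to 0.21 with 1 library left out; Fst was 0.019 with no filter, 0.83 with a surrogate variable and 0.23 without both libraries, and Ahsg was -0.043 with a surrogate variable. The cause was not tested.

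Genes passing in FL against control numbered 2, and 54 with DESeq2 (16 higher, 38 lower), 1 with limma-voom, 1 with no filter and 0 to 3 with 1 library left out. In ML they numbered 0, and 56 with DESeq2 (15 higher, 41 lower), 3 with no filter and 0 to 1 with 1 library left out (1 without control 1). In FL against ML they numbered 1, and 31 with DESeq2 (8 higher, 23 lower), 2 with no filter, 0 with these 2 groups alone, 2 with the length and GC trend removed and 0 to 2 with 1 library left out. Of the nearest genes, 6 of 24 were kept without control 1 and ML 9. Fgf21 was read at 7 to 61 counts per library and Fst at 42 to 223, so counting error adds to their spread.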
